A study of Equus caballus with 33 samples.

Results

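The comparison asked how the response of equine articular cartilage to interleukin-1β (IL-1β) differed between late and early culture. For each probe set the IL-1β effect was the mean of stimulated explants minus the mean of unstimulated explants on the same days, and the value reported is the effect over days 21 and 27 (late) minus the effect over days 3 and 9 (early). It used 24 of the 33 arrays of the series, taken by treatment and day in the sample titles and paired by replicate number. All values are log2 expression, so a difference of 1 is a doubling.

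Cartilage was taken post mortem, from the distal end of the third metacarpal bone, in 3 horses with no sign of joint disease. Explants rested for 48 h in medium and then received either 10 ng/mL recombinant equine IL-1β or medium without it, with 3 explants in a well and a pair of them taken for each array. The 4 groups were stimulated late, stimulated early, unstimulated late and unstimulated early explants, each with 3 arrays at each of its days. The arrays of day 15 and of unstimulated day 0 entered the estimate of the spread, and day 15 is also quoted beside the other days. No age, sex or breed was given for the horses.

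IL-1β is a cytokine released in inflamed and injured joints. It acts through its type 1 receptor and MyD88 to activate NF-kB and MAP kinases, and chondrocytes answer with collagenases, aggrecanases, nitric oxide and prostaglandins while making less matrix. An effect defined against an untreated control can change over time because either arm changes, so the late minus early change was also tested in the stimulated explants alone and in the unstimulated explants alone. An arm is said to have moved where that test passed.

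The arrays were close in overall level, with medians of 5.16 to 5.38, and no pair held identical values. The array of unstimulated explants at day 27, number 3, stood apart, with a mean correlation of 0.963 with the other arrays of its group against 0.971 for the next lowest and 0.987 for the highest array. Chondrocyte genes were well expressed: ACAN, the core protein of aggrecan, averaged 12.08 over all arrays and HAPLN1, its link protein, 11.84, while the middle probe set averaged 5.27. COL2A1, the chain of the main cartilage collagen, stood lower on this array at 6.60. Of the markers of blood-derived cells, 4 of 15 macrophage, 1 of 11 lymphocyte and 0 of 5 red cell genes averaged above the middle probe set. PTPRC, the pan-leukocyte antigen, averaged 3.49, CD163 2.90, CD3E 3.50 and HBB 3.49, while CD68 averaged 8.45, FCER1G 6.38, C1QA 6.05, CD74 5.79 and CD79A 5.62.

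Late and early effects differed at 497 of 25923 probe sets, or 1.92% (limma, Benjamini-Hochberg adjusted p under 0.05). The effect was lower late than early at 298 (1.15%) and higher at 199 (0.768%). The 497 stood for 460 named genes (2.76% of those measured), 274 lower and 186 higher. The lower differences were the larger ones: 165 lower and 76 higher probe sets differed at least 2-fold. The lowest differences belonged to ALPL, CHRDL2 and GREM1, and the highest to MIR29A and CCL5. The calls depended on the replicate numbers: without number 2 only 11 probe sets passed, without number 1 it was 64, and without number 3 it was 346. They also depended on the days: day 21 against day 9 alone gave 5 calls and day 27 against day 3 gave 496. With 1 value per number 34 passed, and without number as a block 288. Without the array that stood apart the count was 508. An unadjusted p under 0.05 was reached by 3349 probe sets.

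Either arm could contribute to the difference. Among the 298 lower probe sets, the stimulated explants alone had moved at 135, the unstimulated explants alone at 94, both at 24 and neither at 45. Among the 199 higher ones the counts were 91, 54, 10 and 44. As background, 985 of all probe sets (3.80%) differed between late and early days in the stimulated explants and 536 (2.07%) in the unstimulated explants. The median of the lower probe sets that moved in the unstimulated arm alone was a rise there of 0.85, and the median of those that moved in the stimulated arm alone was −0.79 there. A lower late effect thus held a fall with IL-1β that passed at some genes and a rise without IL-1β that passed at others. The arm that did not pass was not still. Its median was −0.22 where the unstimulated arm alone had moved and 0.22 where the stimulated arm alone had moved. The arms had opposite signs at 463 of the 497 calls. Both arms are parts of the difference that selected the probe sets, so this follows in part from the selection. Without the array that stood apart, the stimulated arm alone had moved at 237 of the calls in both directions, the unstimulated arm alone at 133, both at 31 and neither at 107, against 226, 148, 34 and 89 with it.

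**Figure D1:**
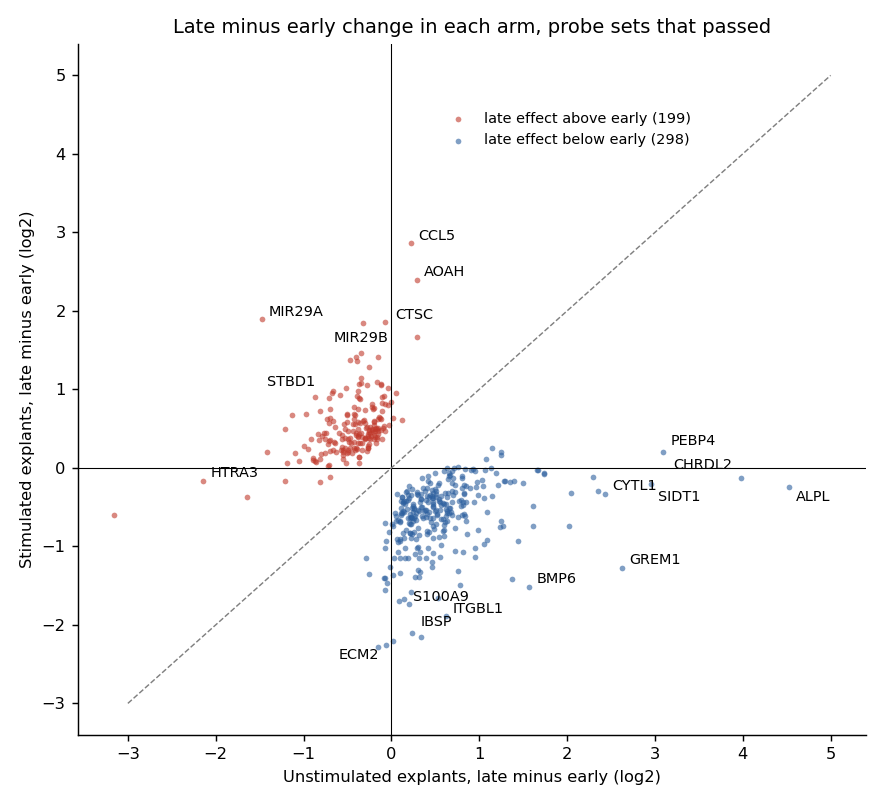
Late minus early change in stimulated explants (vertical axis, log2) against the same change in unstimulated explants (horizontal axis, log2) for the 497 probe sets that passed. On the dashed line both arms change equally, ALPL and CHRDL2 lie far right, where the unstimulated explants rose, and ECM2 and IBSP lie low, where the stimulated explants fell.

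Most of the 497 probe sets also passed for the late effect. That effect is a part of the difference that selected them, so the overlap follows in part from the selection. As background, 6447 of all probe sets (24.9%) responded to IL-1β late and 3375 (13.0%) early. Of the 497, 184 passed at both times with the same sign and a larger late effect, 254 passed late and not early, 36 passed early and not late, 5 passed at both times with a smaller late effect, and 18 passed at both times with opposite signs. The 123 lower ones that became larger had a median effect of −2.01 late and −0.88 early. The 61 higher ones had a median effect of 1.75 late and 0.80 early. The effect at day 15 lay between the early and late effects at 437 of the 497, and it was closer to the late effect at 371. The 497 were selected for early and late effects that lie apart, so a day 15 effect between them follows in part from the selection. The share over all probe sets was not computed.

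ALPL had the most negative difference. It encodes tissue-nonspecific alkaline phosphatase, which removes pyrophosphate and lets mineral form. Its lowest, median and highest log2 values were 3.98, 4.50 and 4.52 in stimulated late explants and 4.16, 4.60 and 5.29 in stimulated early explants. In unstimulated explants they were 8.53, 10.01 and 10.79 late and 4.17, 4.92 and 7.45 early. The unstimulated late arrays were all above the other 3 groups, which overlapped one another. The effect was −5.50 late and −0.73 early, a difference of −4.77 ± 0.55 (SE; limma adjusted p = 3.54e-05), and −5.73, −5.15 and −3.43 in numbers 1, 2 and 3. The unstimulated arm rose by 4.52 (adjusted p = 4.06e-07), and the stimulated arm, at −0.24, did not pass. Without IL-1β the means ran 4.18, 5.29, 5.47, 9.19, 10.35 and 9.46 over days 0, 3, 9, 15, 21 and 27, with the widest step between consecutive means from day 9 to day 15. Number 3 was already higher before that, at 4.48, 7.45 and 6.58 on days 0, 3 and 9.

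CHRDL2 and GREM1, both secreted antagonists of bone morphogenetic proteins (BMPs), likewise moved in the unstimulated arm alone. CHRDL2, chordin-like 2, had 4.87, 5.11 and 5.34 in stimulated late explants and 4.75, 5.31 and 5.50 in stimulated early explants. In unstimulated explants it had 10.37, 12.55 and 12.89 late and 5.68, 7.73 and 11.82 early. On these days its stimulated arrays lay below every unstimulated array. The difference was −4.11 ± 0.54 (adjusted p = 0.00012), with an unstimulated rise of 3.98 and a stimulated change of −0.13 that did not pass. GREM1, gremlin 1, had 7.01, 8.31 and 9.88 in stimulated late explants and 8.81, 9.58 and 10.56 in stimulated early explants, against 11.84, 12.34 and 12.56 in unstimulated late and 8.18, 9.36 and 12.26 in unstimulated early explants. Its effect was −3.90 late and 0.00 early, a difference of −3.91 ± 0.67 (adjusted p = 0.00164). GREM1 rose by 2.63 in the unstimulated arm, while the stimulated change of −1.28 did not pass (adjusted p = 0.145).

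BMP6, a BMP ligand, moved in both arms over all arrays. It had 5.88, 6.42 and 7.11 in stimulated late explants and 6.79, 7.83 and 9.17 in stimulated early explants, and 8.20, 8.70 and 10.17 in unstimulated late and 6.26, 7.14 and 8.54 in unstimulated early explants. Late arrays of the 2 arms did not overlap and early arrays did. The stimulated arm fell by 1.52 and the unstimulated arm rose by 1.57, and the difference was −3.08 ± 0.54 (adjusted p = 0.00198). The unstimulated change, 1.39, did not pass without the array that stood apart (adjusted p = 0.0839). CHRDL2, GREM1 and BMP6 were the members called among 24 measured genes of the BMP and GDF list (3 lower, none higher), whose median difference was −0.20 against 0.03 over all 16661 gene symbols. As background for these and all later list counts, 1.64% of gene symbols were called lower and 1.12% higher. Members and lists were chosen with earlier results of these data known, so list shares beside this background are descriptive only.

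**Figure D2:**
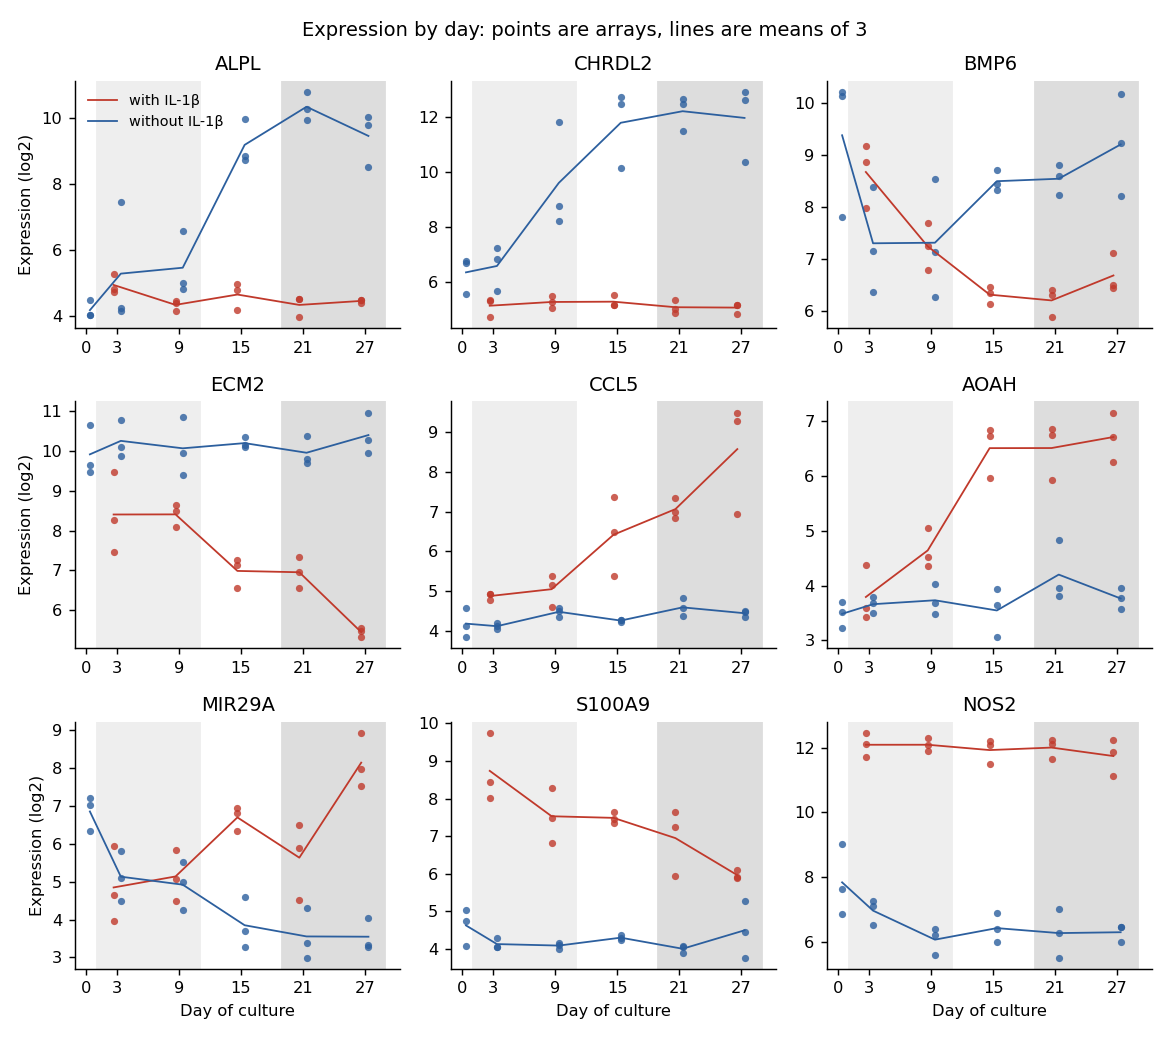
Log2 expression by day of culture for 9 genes, with IL-1β and without it; points are arrays and lines are means of 3, and the light and dark bands cover the early and late days. ALPL and CHRDL2 climbed without IL-1β, ECM2 and S100A9 fell with IL-1β, CCL5 and AOAH climbed with IL-1β, and the arms of NOS2 lay 5.60 apart late and 5.58 early.

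Most of the other genes with the lowest differences also rose without IL-1β. They were SIDT1 (−3.16), a SID1-family membrane protein; PEBP4 (−2.89), of the phosphatidylethanolamine-binding family; IGSF10 (−2.77), an immunoglobulin-superfamily protein; and CRISPLD1 (−2.65), a secreted CRISP-family protein. ITM2A (−2.42), a type II membrane protein, KCNT2 (−2.38), a potassium channel, TMEM255A (−2.37), a membrane protein, and PCOLCE (−2.36), the enhancer of procollagen C-proteinase, complete them. In these 8 genes the unstimulated arm rose by 1.45 (KCNT2) to 3.09 (PEBP4), and the stimulated change did not pass. That change ran from −0.93 (KCNT2, adjusted p = 0.064) to 0.20 (PEBP4). TPRG1 (−2.79) moved in both arms, with −1.42 stimulated and 1.37 unstimulated. PCOLCE differed little in number 3, at −0.33, against −3.24 and −3.51 in numbers 1 and 2. Of the 15 genes with the lowest differences, ALPL (adjusted p = 0.0298) and CYTL1 (0.0411) passed without number 2.

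ITGBL1, a secreted integrin β-like protein, was the 1 gene of the 15 with a move in the stimulated arm alone. It had 5.02, 5.60 and 6.19 in stimulated late explants and 6.32, 7.48 and 8.27 in stimulated early explants, against 10.92, 11.31 and 11.48 in unstimulated late and 9.86, 10.62 and 11.08 in unstimulated early explants. The stimulated late arrays lay below all the others. The stimulated arm fell by 1.89, the unstimulated change of 0.62 did not pass, and the difference was −2.51 ± 0.33 (adjusted p = 0.000131).

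**Figure D3:**
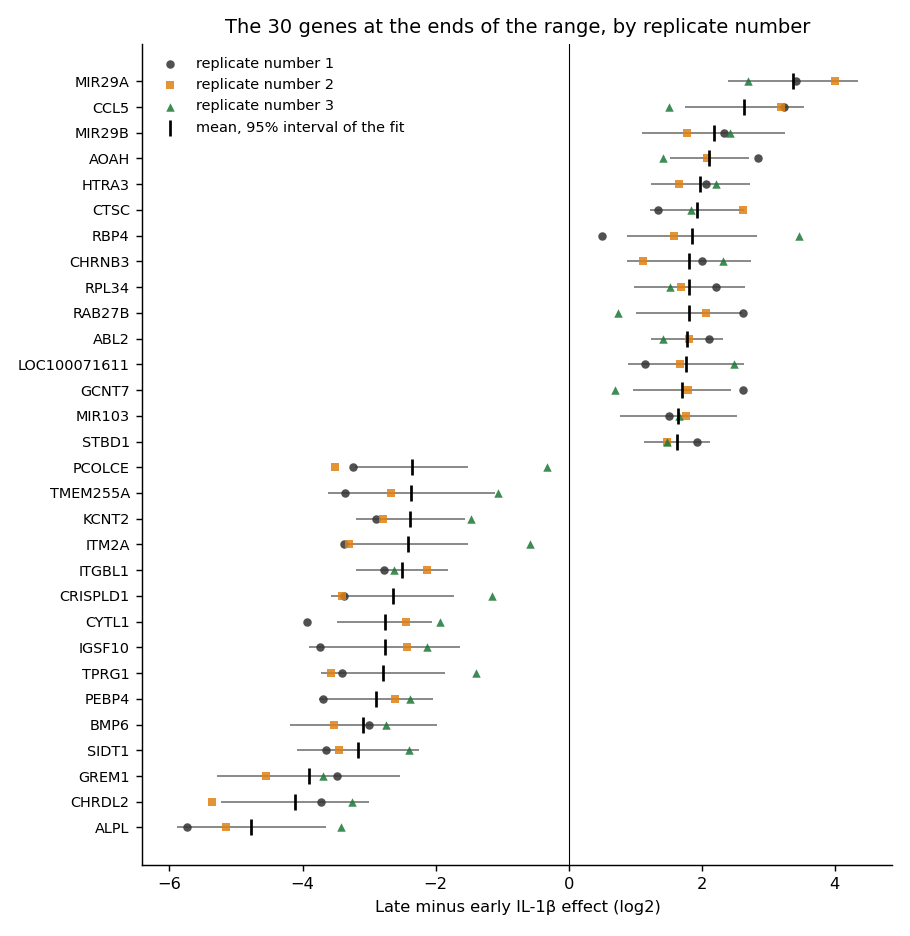
Late minus early IL-1β effect (log2) of the 15 genes with the lowest and the 15 with the highest difference, for each replicate number, with the mean and 95% interval of the fit. ALPL is at −5.73, −5.15 and −3.43 in the 3 numbers, while RBP4 and PCOLCE spread widely.

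On the higher side, MIR29A had the largest difference. It is a precursor of microRNA-29, whose mature forms pair with the mRNAs of many collagens. Its values were 4.52, 7.01 and 8.92 in stimulated late explants and 3.96, 4.86 and 5.94 in stimulated early explants, against 3.00, 3.35 and 4.29 in unstimulated late and 4.26, 5.03 and 5.81 in unstimulated early explants. Early arrays of the arms overlapped and late arrays did not. The difference was 3.37 ± 0.48 (adjusted p = 0.000242): the stimulated arm rose by 1.90 and the unstimulated arm fell by 1.48. The stimulated mean was 5.63 at day 21 and 8.14 at day 27, so the late value was uneven between its days. MIR29B (2.18 ± 0.52, adjusted p = 0.0271) moved in the stimulated arm alone, by 1.85. MIR29B differed by 4.02 for day 27 against day 3 and by 0.34 for day 21 against day 9. MIR103 (1.65) passed the difference with neither arm passing.

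CCL5, a chemokine that attracts T cells and monocytes, rose in the stimulated arm alone. It had 6.84, 7.17 and 9.49 in stimulated late explants and 4.60, 4.92 and 5.38 in stimulated early explants, against 4.34, 4.49 and 4.81 in unstimulated late and 4.04, 4.27 and 4.57 in unstimulated early explants. The stimulated late arrays lay above all others. Its stimulated rise was 2.86 and its unstimulated change 0.22, for a difference of 2.64 ± 0.44 (adjusted p = 0.00122). With IL-1β the means were 4.87, 5.04, 6.42, 7.06 and 8.57 over days 3, 9, 15, 21 and 27. Number 3 differed from these means, with 4.91, 5.38, 7.38, 6.84 and 6.94, the highest at day 15.

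AOAH, the hydrolase that inactivates bacterial lipopolysaccharide, and CTSC, the cathepsin that activates serine proteases, also rose with IL-1β. AOAH had 5.92, 6.74 and 7.16 in stimulated late explants and 3.42, 4.36 and 5.04 in stimulated early explants, while unstimulated explants held 3.57, 3.88 and 4.83 late and 3.48, 3.69 and 4.03 early. Its difference was 2.11 ± 0.29 (adjusted p = 0.000159), with a stimulated rise of 2.40 and an unstimulated change of 0.29 that did not pass. AOAH was the 1 gene of the 15 highest that passed without number 2 (adjusted p = 0.0442). CTSC differed by 1.93 ± 0.34 (adjusted p = 0.00224), with a stimulated rise of 1.85.

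Among the rest of the 15 highest, 1 arm, both arms or neither arm had moved. RBP4, the retinol carrier (1.85), RPL34, a ribosomal protein (1.81), RAB27B, a GTPase of secretory vesicles (1.81), and LOC100071611 (1.76) rose in the stimulated arm alone, by 1.37 (LOC100071611) to 1.47 (RPL34). HTRA3, a secreted serine protease, differed by 1.98 ± 0.36 with an unstimulated fall of 2.14, and GCNT7, a glycosyltransferase (1.70), likewise fell by 1.21 there, with no stimulated change that passed in either. ABL2, a tyrosine kinase (1.78), and STBD1, a glycogen-binding protein (1.63), rose in the stimulated arm by 0.90 and 0.95 and fell in the unstimulated arm by 0.87 and 0.68, of which that of STBD1 did not pass without the array that stood apart (adjusted p = 0.103). CHRNB3, a nicotinic receptor subunit (1.81), passed with neither arm passing. RPL34, RAB27B, CHRNB3 and MIR103 did not average above the middle probe set over all arrays. Nor did MIR29B, CCL5, AOAH and CTSC. RBP4 rested on its numbers, at 0.51, 1.59 and 3.46 in numbers 1, 2 and 3, and RBP4 (adjusted p = 0.0685) and MIR103 (0.0774) did not pass without the array that stood apart.

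Of 23 measured genes of non-collagenous cartilage matrix 7 were called lower and none higher, with a median difference of −0.79. Without the array that stood apart 8 were called lower. CYTL1, a secreted chondrocyte protein (−2.77 ± 0.35, adjusted p = 9.5e-05), rose by 2.44 in the unstimulated arm. CNMD, chondromodulin, a cartilage glycoprotein that inhibits vessel growth (−1.69), rose there by 1.50. ECM2 (−2.22), a leucine-rich matrix protein, and SPARC (−1.66), a collagen-binding glycoprotein, fell in the stimulated arm by 2.21 and 1.20. HAPLN1 (−0.85) fell there by 1.15. CILP (−1.94, stimulated arm −1.74) and MIA (−0.79, neither arm), both secreted by chondrocytes, were the other members called, and they were chosen after their values were seen.

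ECM2 showed the fall with IL-1β most plainly. Its values were 5.32, 6.05 and 7.33 in stimulated late explants and 7.45, 8.38 and 9.48 in stimulated early explants, and 9.69, 10.12 and 10.97 in unstimulated late and 9.40, 10.02 and 10.86 in unstimulated early explants. No array of 1 stimulated group overlapped the other, while the unstimulated groups covered nearly the same range. ECM2 passed without number 2 as well (adjusted p = 0.0225).

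Small leucine-rich proteoglycans, which bind collagen fibrils, had 2 of 11 members called lower and a median difference of −1.10. FMOD, fibromodulin, moved in both arms, by −0.74 stimulated and 1.27 unstimulated, for a difference of −2.02 ± 0.25 (adjusted p = 9.5e-05). BGN, biglycan (−1.40), rose by 0.80 in the unstimulated arm, while its stimulated change of −0.60 did not pass (adjusted p = 0.0794). In the hyaluronan and glycosaminoglycan list 2 of 21 were called lower, CSGALNACT1, which starts chondroitin sulphate chains (−1.18), and HAS2, a hyaluronan synthase (−0.96), and in both the stimulated arm fell, by 1.02 and 0.62. Among 18 genes of collagen processing, the chaperone SERPINH1 (−1.24; −0.65 stimulated, 0.59 unstimulated) and PCOLCE were lower. LOXL4, a lysyl oxidase (0.92), was higher through an unstimulated fall of 0.70 and lost its call without the array that stood apart (adjusted p = 0.0647).

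Collagens themselves were not called by limma, at 0 of 10 cartilage collagens and 0 of 17 other collagens, with medians of −0.31 and −0.04. An unadjusted p under 0.05 was reached by 5 of the 10 and 1 of the 17, against 15.5% of all gene symbols. COL2A1 differed by −1.15 (95% interval −2.14 to −0.17; adjusted p = 0.278). COL10A1, the collagen of hypertrophic chondrocytes, differed by 2.52 (0.72 to 4.31; adjusted p = 0.161), with an unstimulated fall of 2.90. Its unstimulated early arrays ran from 3.62 to 10.53 with a median of 9.44, so the early level was very uneven.

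Hypertrophy and mineralisation genes had the largest share called of the 31 pathway lists, with 6 of 19 lower and 1 higher, and the same counts without the array that stood apart. The lists were chosen with earlier results of these data known, so this rank may in part follow from the choice. ENPP1, which makes pyrophosphate (−1.04 ± 0.13, adjusted p = 0.000104), and MGP, an inhibitor of mineral formation (−0.94), fell in the stimulated arm by 0.94 and 1.02. MEF2C, a transcription factor of hypertrophy (−0.91), moved in both arms, by −0.43 stimulated and 0.48 unstimulated. IBSP, bone sialoprotein (−2.34 ± 0.53, adjusted p = 0.0181), fell by 2.11 in the stimulated arm, with an effect of −1.87 late and of 0.47 early, the early one not passing. ALPL and PHOSPHO1, a phosphatase of matrix vesicles (−1.56), rose in the unstimulated arm, PHOSPHO1 by 1.40, and SLC20A1, a phosphate transporter (0.93), rose in the stimulated arm by 0.60. PHOSPHO1 and SLC20A1 were chosen after their values were seen. ENPP1, which makes pyrophosphate, and ALPL, which removes it, were both on the lower side, ENPP1 through the stimulated and ALPL through the unstimulated arm.

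Chondrocyte transcription factors had 3 of 20 members lower and 1 higher, or 4 and 2 without the array that stood apart. ERG (−0.83), an ETS factor of articular chondrocytes, rose by 0.50 in the unstimulated arm. SOX5 (−0.48), a partner of SOX9, fell by 0.31 in the stimulated arm, and MEF2C is given above. ETV5 (1.18), an ETS factor downstream of fibroblast growth factor, fell by 0.94 in the unstimulated arm. SOX9 itself differed by −0.13 (−0.59 to 0.33), and neither arm passed. DLX5, a homeobox factor of skeletal cells outside these lists and chosen after its values were seen, had the smallest p of all probe sets. It differed by −1.53 ± 0.16 (adjusted p = 1.35e-05), with −0.68 in the stimulated and 0.85 in the unstimulated arm, both of which passed.

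None of the 23 measured genes chosen as known IL-1β or cartilage genes was called by limma, against 2.76% of all gene symbols. A list of this size would hold few calls at that share, so the absence of calls says little about these genes. An unadjusted p under 0.05 in limma was reached by 7, or 30.4%, against 15.5% of all gene symbols. Of the 23, 18 responded to IL-1β late and 18 early, against 31.7% of gene symbols late and 17.6% early. The 23 were chosen as known IL-1β or cartilage genes, so a high share follows in part from the choice. MMP1, interstitial collagenase, had 12.65, 13.11 and 13.17 in stimulated late explants and 13.00, 13.14 and 13.27 in stimulated early explants, against 4.25, 4.45 and 5.40 in unstimulated late and 4.40, 5.30 and 7.42 in unstimulated early explants. Its effect was 8.30 late and 7.68 early, and the difference was 0.62 (95% interval −0.17 to 1.41). Neither arm moved, and stimulated values lay near the highest value of any array, 13.9, which limits what can be read as a further rise.

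NOS2, inducible nitric oxide synthase, had an effect of 5.60 late and 5.58 early (difference 0.01, −0.85 to 0.88). PTGS2, the inducible prostaglandin synthase, had 3.15 late and 3.10 early (0.05, −0.79 to 0.89). S100A12, a secreted alarmin, had 7.32 late and 7.41 early (−0.09, −0.94 to 0.76). In these 3 genes neither arm moved, and the intervals leave room for changes of up to about the size of a doubling in either direction. MMP13, collagenase 3, had a wide interval, −3.44 to 1.20 around −1.12, with numbers at −2.30, −3.22 and 2.15. IL6 differed by −0.42 (−1.70 to 0.87) and CCL20, a chemokine, by −0.66 (−1.69 to 0.36), with neither arm passing.

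ADAMTS5, an aggrecanase, had an effect of 1.63 late, which passed, and 0.17 early, which did not. The difference of 1.46 (0.35 to 2.56) did not pass (adjusted p = 0.197). The unstimulated arm had fallen by 1.85, with values of 5.77, 7.21 and 8.35 late and 6.22, 9.14 and 10.96 early, and the stimulated arm held 8.46, 8.78 and 9.49 late and 8.68, 9.13 and 10.14 early. COMP, cartilage oligomeric matrix protein, fell in both arms, by 2.49 stimulated and 1.33 unstimulated, and its difference of −1.16 (−2.00 to −0.32) did not pass. ACAN fell in the stimulated arm by 0.78, with a difference of −0.68 (−1.17 to −0.19) that did not pass.

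**Figure D4:**
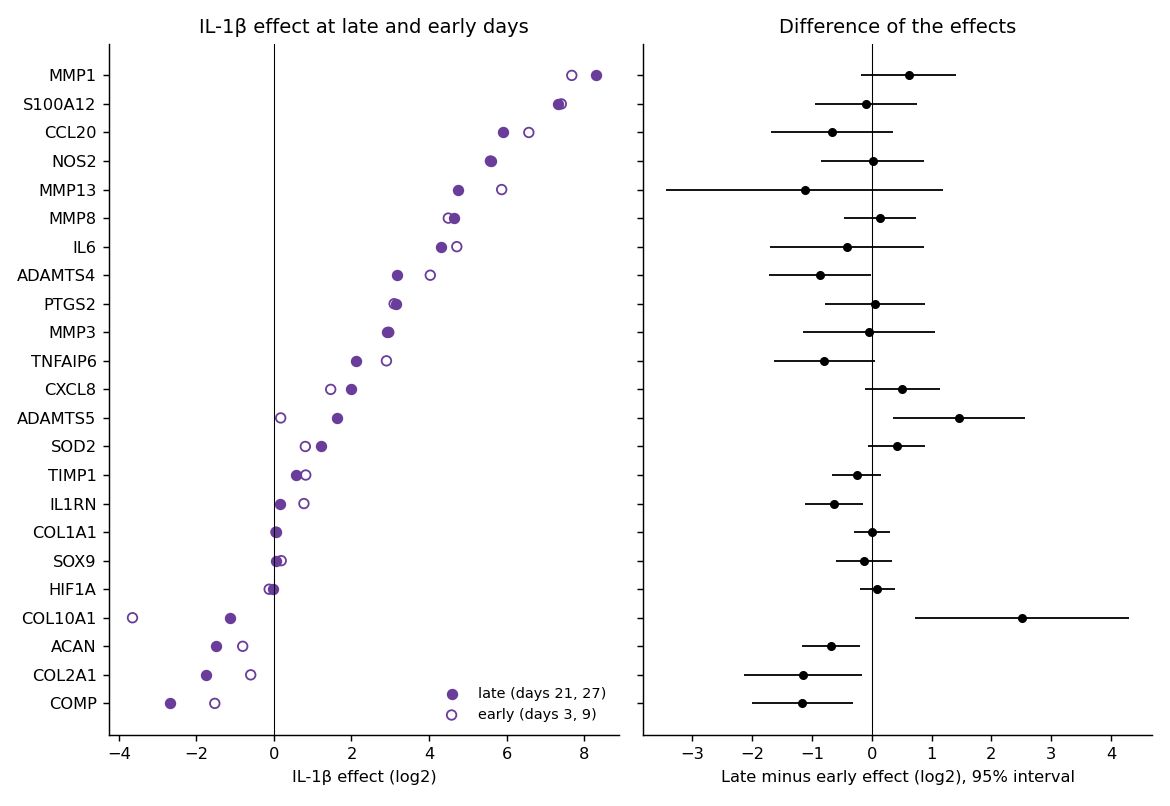
Left, IL-1β effect (log2) of 23 known IL-1β and cartilage genes at late days (filled) and early days (open); right, the late minus early effect with its 95% interval. MMP1 lies at 8.30 late and 7.68 early, and no gene passed the test of the difference.

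Lists of proteases, their inhibitors, cytokines and NF-kB genes held at most 2 calls each over all arrays. Of all gene symbols 1.12% were called higher and 1.64% lower. Of 32 matrix-degrading proteases 2 were higher: ADAM10, a sheddase (1.05 ± 0.15, adjusted p = 0.000242), through an unstimulated fall of 0.69, and CTSK, cathepsin K (1.18 ± 0.23), through a stimulated rise of 1.06. Of 9 protease inhibitors and 32 cytokines and their receptors 0 were called by limma, and 2 and 4 reached an unadjusted p under 0.05. Without the array that stood apart, 1 protease, MMP16 (−0.85, adjusted p = 0.0353), and 1 inhibitor, SPINT2 (−0.66, 0.0473), were called lower as well. Of 29 NF-kB genes only CYLD, a deubiquitinase that restrains NF-kB (0.52), was called, with neither arm passing.

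Chemokines had 3 of 14 members higher, CCL5 and 2 others. CXCL14 (1.29) and CXCL16 (0.82) differed through the unstimulated arm, which fell by 1.10 and 0.56. The unstimulated change of CXCL16, −0.50, did not pass without the array that stood apart (adjusted p = 0.0802). Of 23 prostaglandin and nitric oxide genes, ARG2, an arginase that competes for the substrate of NOS2 (1.33), rose by 1.05 in the stimulated arm. ALOX5AP, which serves leukotriene synthesis (1.12), fell by 0.75 in the unstimulated arm, and its call was lost without the array that stood apart (adjusted p = 0.0707).

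S100A9, a subunit of calprotectin, was among the few genes whose response shrank. It had 5.88, 6.03 and 7.64 in stimulated late explants and 6.81, 8.16 and 9.74 in stimulated early explants, and unstimulated explants held 3.78, 4.06 and 5.27 late and 4.01, 4.08 and 4.29 early. The late and early ranges overlapped in the stimulated arm. The effect was 2.20 late and 4.02 early, with a stimulated fall of 1.68 and a difference of −1.82 ± 0.37 (adjusted p = 0.00695). S100A9 differed by −3.14 for day 27 against day 3 and by −0.50 for day 21 against day 9. Among 20 innate defence and complement genes it was called lower with C4BPA, which inhibits complement (−1.78), and C2, a complement protease (−0.73), and in both of those the unstimulated arm rose, by 0.98 and 0.54. The unstimulated change of C4BPA did not pass without the array that stood apart (1.01, adjusted p = 0.0539). Of 27 interferon genes 1 was lower, IFI6 (−1.05; unstimulated rise of 0.82; adjusted p = 0.0639 without the array that stood apart), while 6 rose in the stimulated arm, against 2.26% of gene symbols.

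In metabolism, 4 of 33 glycolysis and hypoxia genes were higher and none lower, with a median of 0.25. PFKL, a phosphofructokinase (0.79), and PFKFB3, which activates glycolysis (1.51), rose in the stimulated arm by 0.45 and 0.93. ANKRD37 (1.61) and EGLN3, a prolyl hydroxylase that marks HIF proteins (1.20), passed with neither arm passing, and EGLN3 did not pass without the array that stood apart (adjusted p = 0.0685). Without that array 3 of the 33 were called. Of 17 lipid export genes 2 were higher: ABCG1 (1.01) rose by 0.90 in the stimulated arm, and ABCA1 (1.27) had an effect of 0.02 late and −1.25 early, with neither arm passing. Of 18 genes of oxidative and metal handling 2 were higher: TFRC, the transferrin receptor (0.96), through an unstimulated fall of 0.64, and FTL, ferritin light chain (0.75), through a stimulated rise of 0.62.

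Several further lists held no call. Of 28 cytosolic ribosomal protein genes 0 were called, although all 28 were lower with IL-1β both late and early, with median effects of −0.76 late and −0.63 early, while 13.8% of gene symbols were lower late and 8.44% early. RPL34, named above, was not in that list and did not average above the middle probe set. Of 23 oxidative phosphorylation genes 0 were called, with a median of −0.01, and of 21 TGF-β and activin genes 0, with a median of 0.14. An unadjusted p under 0.05 in limma was reached by 4 of the ribosomal, 4 of the oxidative phosphorylation and 7 of the TGF-β genes. These were 14.3%, 17.4% and 33.3% of the lists, against 15.5% of all gene symbols.

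Of 31 Wnt genes 2 were lower and 1 higher. FRZB, a secreted Wnt antagonist of cartilage (−1.60 ± 0.31, adjusted p = 0.00562), and LRP6, a Wnt coreceptor (−0.97), fell in the stimulated arm by 1.30 and 0.91. CTNNB1, β-catenin (0.65), was higher through an unstimulated fall of 0.40. Of 16 IGF genes, IGFBP6 (−1.24, stimulated arm −0.84) and IGF2R (0.99, stimulated arm 0.77) both lost their calls without the array that stood apart (adjusted p = 0.0635 and 0.0701). Of 34 cell cycle genes, CCNA2 (−1.24) and CCND2 (−0.88), both cyclins, were lower through unstimulated rises of 0.68 and 0.69, and CDKN1A, an inhibitor of cyclin-dependent kinases (0.99), was higher with neither arm passing. Without the array that stood apart the stimulated change of CCNA2, −0.56, passed (adjusted p = 0.0246) and its unstimulated change, 0.52, did not (0.0866), while CDKN1A passed in the unstimulated arm (−0.68, 0.0419). Of 20 apoptosis genes CDKN1A was higher and BCL2 lower, and BCL2, which protects from apoptosis (−1.02), fell in the stimulated arm by 0.94.

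The remaining lists had 1 call each. KLF6, an immediate-early transcription factor (1.03, 1 of 27), rose in the stimulated arm by 0.81. FDFT1, squalene synthase (−0.69, 1 of 16), fell there by 0.57. EDEM1, which directs misfolded proteins to degradation (0.77, 1 of 26), passed with neither arm passing. VIM, vimentin (−1.11, 1 of 20 genes of dedifferentiation and contraction), fell in the stimulated arm by 0.64 and rose in the unstimulated arm by 0.48.

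**Figure D5:**
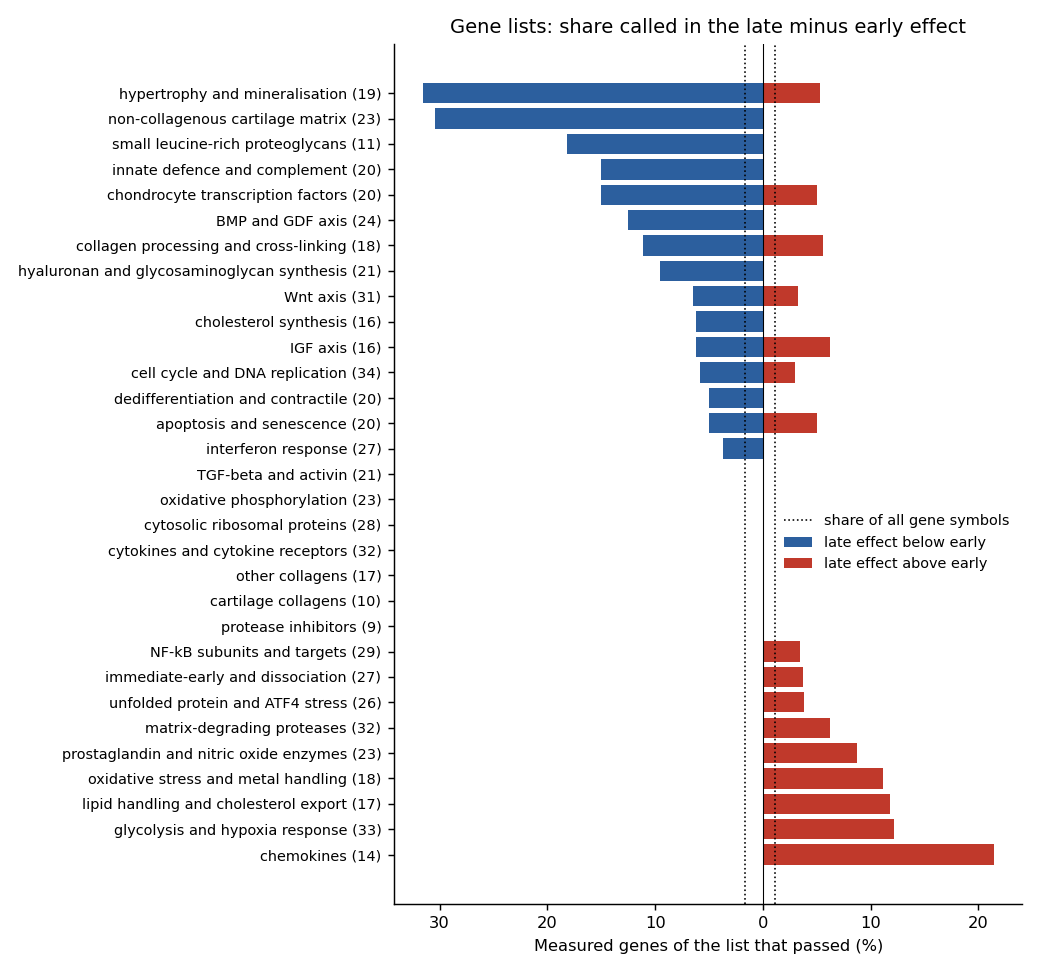
Share of the measured genes of each list (number in brackets) called lower (left) or higher (right) in the late minus early effect, in percent; dotted lines mark the share of all gene symbols, 1.64% lower and 1.12% higher. Hypertrophy and mineralisation genes and non-collagenous matrix genes reach furthest left, and chemokines furthest right. The lists were chosen with earlier results of these data known.

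The summed levels of some cell markers also differed between the groups. Each sum is the log2 of added unlogged levels, so the gene with the highest level weighs most. For osteoclast markers that was CTSK (mean 11.68, next ATP6V0D2 at 6.08), and for endothelial markers ERG (10.95, next EGFL7 at 6.02). For osteoblast markers in unstimulated late explants it was ALPL (9.90). These sums thus largely follow single genes named above and not whole sets of markers. The summed level of the 12 chondrocyte markers was 11.8 to 12.7 in stimulated late and 13.1 to 13.6 in stimulated early explants, against 13.5 to 13.7 in unstimulated late and 13.7 to 14.0 in unstimulated early explants, and CNMD and HAPLN1 were called (2 lower of 12). The sum of 8 osteoblast markers was 8.26 to 8.85 and 8.43 to 9.07 in stimulated late and early explants, against 9.51 to 11.1 and 8.31 to 9.54 in unstimulated late and early explants, and ALPL and IBSP were its called members (2 lower of 8). Of the 8, DMP1 (3.08), MEPE (3.67) and PHEX (3.90) averaged below the middle probe set, and SP7 (6.72), IBSP (6.52), SOST (6.43), ALPL (6.06) and IFITM5 (5.78) above it. The sum of 8 osteoclast markers was 12.7 to 13.2 in stimulated late and 11.3 to 12.7 in stimulated early explants, against 10.9 to 11.5 in unstimulated late and 10.7 to 11.96 in unstimulated early explants, with CTSK the 1 call of 8. In the stimulated arm CTSK and ATP6V0D2, a proton pump subunit, rose, and ATP6V0D2 averaged 7.65 in stimulated late and 6.60 in stimulated early explants, against 5.47 in unstimulated late and 5.51 in unstimulated early explants. Of the 8, DCSTAMP (2.97), CALCR (3.09) and ACP5 (4.25) averaged below the middle probe set and the other 5 above it. For endothelial markers the ranges were 10.1 to 10.9 and 10.6 to 11.1 in stimulated late and early explants, against 11.6 to 12.1 and 11.1 to 11.6 in unstimulated late and early explants. The 1 call of 10 there was ERG. ERG and VWF rose in the unstimulated arm, and VWF averaged 6.54 in unstimulated late and 5.91 in unstimulated early explants. ERG, EGFL7 (6.02), VWF (5.73) and PECAM1 (5.68) averaged above the middle probe set and the other 6 below it, with EMCN at 2.87 and CDH5 at 4.21.

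Markers of other cells were not called by limma, at 0 of 11 synovial, 0 of 15 macrophage, 0 of 11 lymphocyte, 0 of 5 red cell and 0 of 10 adipocyte and muscle genes, with 2, 2, 0, 0 and 0 at an unadjusted p under 0.05. Without the array that stood apart 1 macrophage gene, CD74, was called lower. FCER1G, an Fc receptor subunit, averaged 7.85 in stimulated late and 8.51 in stimulated early explants, against 4.65 in unstimulated late and 4.80 in unstimulated early explants. Macrophage sums were 9.71 to 10.4 and 9.81 to 10.2 in stimulated late and early explants, against 9.40 to 10.3 and 9.08 to 9.53 in unstimulated late and early explants. Lymphocyte sums were 7.70 to 8.15 and 7.70 to 7.86 in stimulated late and early explants, against 7.68 to 8.14 and 7.77 to 7.95 in unstimulated late and early explants, so the groups overlapped. Synovial sums were 10.4 to 11.5 and 11.3 to 12.1 in stimulated late and early explants, against 10.7 to 11.5 and 10.6 to 11.8 in unstimulated late and early explants. The part of any such shift in the results above was not tested, and in RNA pooled from all the freed cells fewer cells of a kind cannot be told apart from less RNA in each.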

How the data were processed

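RNA of cells freed from explants by trypsin and collagenase type II was hybridised to Affymetrix whole-transcript arrays, 1 array per sample, 33 in all. The deposited log2 values, 1 table of 25923 probe sets, were made with Affymetrix Expression Console and RMA, and limma is also named, per the submitters' processing notes. The log base is not stated and was taken as log2 from the range, 1.501 to 13.9. RMA sets the arrays to 1 common distribution, so a shift of all genes together cannot be seen. The number of arrays limits the precision. No scan date or slide was given, so batches could not be examined.

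Groups were treatment and day, from the sample titles (11 groups of 3). Means per group and replicate number as a block were fitted with limma 3.58.1 in R 4.3.3 (lmFit, eBayes) over all 33 arrays, with 20 residual degrees of freedom, and contrasts were tested two-sided with Benjamini-Hochberg adjustment over all probe sets. The design names 3 horses, and that 1 number is 1 horse was inferred from the titles; p-values measure only the spread between these samples. The pairing was set by the comparison. Same-numbered arrays of 1 day deviated together weakly (lowest correlation 0.0781 over 15 pairs; median 0.164 over 165 same-number pairs, −0.0841 over 330 others).

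Probe sets were named from the platform's annotation: 16789 had 1 symbol, 343 several and 8791 none. Only the first were named, and of several probe sets the 1 with the highest mean stood for a gene (16661 genes). Lists held 819 genes, of which 739 were measured. The text names the 15 lowest and 15 highest differences with 1 sign in all 3 numbers among called genes, 26 known genes (23 measured) and up to 4 members of each list by smallest p. Members and lists were chosen with earlier results of these data known. The fit was also run on simulated data with noise drawn independently for each array. That run cannot speak to how the calls depend on the replicate numbers. No value column was left unassigned. Figures used Python 3.11.15 and matplotlib 3.10.9. Alternatives changed the block, the arrays, the days, the filter, the scaling and the variance model.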

Additional observations from a re-analysis of the deposited data

Results flagged for a closer look

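The differences between late and early effects are themselves tests between times, and 497 probe sets passed. At 18 of them the IL-1β effect passed at both times with opposite signs. The 16 that carry a symbol are named here for that reason, after their values were seen.

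In 13 of the 16 IL-1β lowered the gene late and raised it early. VIM, vimentin, an intermediate filament protein, differed by −1.11, with an effect of −0.62 late and 0.50 early, a stimulated fall of 0.64 and an unstimulated rise of 0.48. QPCT, glutaminyl cyclase, differed by −2.20, with −0.95 late and 1.25 early, and ENOSF1 by −1.80, with −0.94 late and 0.85 early, and in both the stimulated arm alone moved. The stimulated arm alone moved also in AKNAD1 (−1.14), SMARCA2 (−0.78), a chromatin remodelling ATPase, SMTN (−1.31), smoothelin, RHOBTB3 (−0.87), NDUFA4L2 (−1.31) and CUBN (−1.37), cubilin. NDUFA4L2 changed by −0.68 in the stimulated arm and by 0.63 in the unstimulated arm, where it did not pass (adjusted p = 0.0685). Without the unstimulated day 27 array of number 3 its unstimulated change passed as well (0.78, adjusted p = 0.0194). The unstimulated arm alone moved in ROBO1 (−1.37), a SLIT receptor, and EPB41L1 (−1.23; adjusted p of that arm 0.0621 without the unstimulated day 27 array of number 3), both arms in FBXL7 (−1.14), and neither in PCGF1 (−0.96). The stimulated changes of ROBO1 and EPB41L1, −0.43 and −0.58, did not pass (adjusted p = 0.169 and 0.0611).

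In the other 3 the order was opposite. NPC2, a lysosomal cholesterol carrier, differed by 0.95, with 0.44 late and −0.52 early, and CA5B, a mitochondrial carbonic anhydrase, by 0.66, with 0.31 late and −0.35 early, and in both the unstimulated arm alone moved. CMSS1 differed by 0.93, with 0.47 late and −0.46 early, and the stimulated arm alone moved.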

How the results depend on the processing

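The counts of called probe sets depended on the replicate numbers and the days. Without the replicate block 288 passed for the difference, 629 for the stimulated arm and 307 for the unstimulated arm. With 1 value per number, which keeps the pairing and leaves few degrees of freedom, the counts were 34, 426 and 0 (2567 at an unadjusted p under 0.05), and 2165 for the early effect. Day 21 against day 9 gave 5, 5 and 18, and 3749 for the late effect, while day 27 against day 3 gave 1166 for the early effect. Leaving out 1 number gave 11 to 346 for the difference, 72 to 867 for the stimulated arm, 86 to 330 for the unstimulated arm, 1566 to 2398 for the early effect and 4065 to 5118 for the late effect, with fewer arrays in every group. For the difference, the other settings tried gave 406 (number as a random block), 453 (24 arrays), 654 (probe sets above the median), 543 (quantile normalised again), 571 (variance trend), 508 (without the array that stood apart) and 496 (day 27 against day 3).

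Of 79 named genes that passed, 56 passed without the block and 17 with 1 value per number. Without numbers 1, 2 and 3 it was 19, 4 and 50, and without the array that stood apart 71. Day 27 against day 3 kept 60 and day 21 against day 9 kept 1. The cause of these losses was not tested. None of the 79 turned its sign, but most settings could not turn one. The settings of the block, the filter, the variance trend, the 24 arrays and 1 value per number left the estimate the same. Of all 497 calls, 494 had 1 sign in all 3 numbers, which leaving out 1 number cannot turn. The days, the repeated quantile normalisation and the array that stood apart could have turned a sign, and did not. The day settings are the parts whose mean is the difference that selected these genes, and the others reuse most or all of its arrays. The kept signs thus follow in part from the selection. Of the 39 named calls that had moved in the unstimulated arm, 8 no longer passed there without the array that stood apart. Of the 41 that had moved in the stimulated arm 0 were lost. Signal limits the reading at both ends of the range: ALPL with IL-1β lay below the middle probe set, where a further fall is less well measured.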

Other observations

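CD74, the invariant chain of antigen presentation and a member of the macrophage list, was not called over all arrays. Without the unstimulated day 27 array of number 3 its difference was −1.82 (adjusted p = 0.00289). That array held 5.03, against 8.86 and 7.60 in numbers 1 and 2 at day 27. Unstimulated explants at day 21 held 7.40, 7.11 and 5.97 in numbers 1, 2 and 3, and stimulated explants at day 27 held 5.01, 5.54 and 5.59. APOA1, an apolipoprotein, was called under the same setting (−1.81, adjusted p = 0.0422).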
